A study of Homo sapiens with 8 samples.

Results

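The anti-apoptotic members of the BCL2 family and the ubiquitin ligase MARCH5 were followed in a pooled genome-wide knockout screen of cells treated with EGFR inhibitors. The 6 genes were taken by symbol from the table of single guide RNA (sgRNA) counts: BCL2L1, MCL1, BCL2, BCL2L2, BCL2A1 and MARCH5, out of 18053 gene names. They were targeted by 22 of the 71090 sgRNAs, with 4 each against BCL2L1, MCL1, BCL2 and MARCH5 and 3 each against BCL2L2 and BCL2A1. Of these, 21 passed the filter on low counts, and the guide left out was 1 of the 4 against MCL1. The genes were chosen with earlier results of the same data known.

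The BCL2 family decides whether the outer membrane of the mitochondrion stays intact. Its anti-apoptotic members, BCL-XL (encoded by BCL2L1), MCL1, BCL2, BCL-W (BCL2L2) and BFL1 (BCL2A1), hold the pore-forming effectors BAX and BAK in check and are themselves neutralised by BH3-only proteins such as BIM, which rises when EGFR signaling is blocked in EGFR-mutant lung cancer cells. MARCH5, now named MARCHF5, is an E3 ubiquitin ligase of the mitochondrial outer membrane that is known for controlling fission proteins and the turnover of MCL1 and its partner NOXA.

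PC9 cells, a human non-small cell lung cancer line with an activating deletion in EGFR, expressed the Cas9 nuclease in every group and were infected in duplicate with the TKOv3 sgRNA library at a multiplicity of infection low enough for most infected cells to hold 1 guide, then selected with puromycin. The groups were 72 h in 10 µM erlotinib, 72 h in 0.1 µM osimertinib, 72 h in DMSO vehicle without drug (untreated), and cells taken at the time of drug addition (T0), with 2 libraries each. The methods state that untreated cultures were split 1 day into the treatment and that the endpoint libraries come from live cells. The sources used here do not say which libraries of different groups share an infection, so p-values measure the spread between the libraries of a group, part of which may be technical.

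Total counts lay between 32096281 and 39200466 reads per library, with a median of 445 to 549 reads per guide. Across guides, log2 counts of both libraries of a group correlated with r from 0.964 to 0.978, lowest under osimertinib, and differed by more than counting error in every group. Values below are normalized reads, which are counts scaled to a common library size, and L2FC, the log2 fold change between groups. A negative L2FC means that cells without the gene made up a smaller share of the population. As a check that knockouts took effect, 32 of the 35 cytosolic ribosome genes tested fell in untreated cells relative to T0, with a median L2FC of -0.71, against 0.01 for all genes. On this scale the typical knockout sits near 0 and non-targeting guides, which cut nowhere in the genome, had a median L2FC of 0.18 in untreated cells, 0.15 under erlotinib and 0.15 under osimertinib relative to T0. Between either drug and untreated cells the non-targeting guides were at -0.01.

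BCL2L1 had the lowest L2FC of the 6 genes under both drugs relative to untreated cells, and all 4 of its guides fell in that comparison. Guide TKOV3_05535 had 181 and 170 normalized reads under erlotinib, 277 and 290 under osimertinib, 573 and 561 in untreated cells, and 471 and 563 at T0. Guide TKOV3_05536 had 106 and 93.4 under erlotinib, 160 and 136 under osimertinib, 283 and 284 in untreated cells, and 305 and 250 at T0 in normalized reads. For both guides every drug-treated library lay below every library without drug, and both erlotinib libraries lay below both osimertinib libraries. Guide TKOV3_05537 had 311 and 411 normalized reads under erlotinib, 556 and 396 under osimertinib, 712 and 586 in untreated cells, and 740 and 638 at T0. Guide TKOV3_05538 had 183 and 237 under erlotinib, 234 and 309 under osimertinib, 388 and 386 in untreated cells, and 420 and 345 at T0 in normalized reads. These 2 guides were again lower in every drug-treated library than in every other library, but the ranges of erlotinib and osimertinib overlapped.

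At the gene level, the median over the 4 guides of BCL2L1 relative to the T0 mean was -1.19 and -1.09 in the erlotinib libraries, -0.69 and -0.75 in the osimertinib libraries, and 0.10 and 0.06 in the untreated libraries on the log2 scale. Against untreated cells, loss of BCL2L1 gave an L2FC of -1.22 ± 0.08 under erlotinib (SE, n = 2 libraries per group, adjusted p = 1.51e-12 by limma) and -0.81 ± 0.08 under osimertinib (adjusted p = 2.29e-08 by limma). On this median over guides, abundance was 42.9% and 57.2% of that in untreated cells under erlotinib and osimertinib. Out of 17762 genes, BCL2L1 ranked 3rd from the lowest under erlotinib and 13th under osimertinib. The guides differed in size, since their single L2FC ran from -1.69 to -0.84 under erlotinib and from -0.999 to -0.45 under osimertinib, with all 4 called by edgeR in each comparison. The SD between these guides under erlotinib, 0.43, was larger than that of 99.3% of genes with 4 guides, for which the median SD was 0.14. Most genes changed little under erlotinib, with the 5th to 95th percentile of gene L2FC at -0.20 to 0.22. Guide SD was not compared among genes with changes of similar size, here or for MARCH5 and MCL1 below.

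MARCH5 followed, with all 4 guides lower under both drugs. Guide TKOV3_35303 had 98.5 and 160 normalized reads under erlotinib, 185 and 281 under osimertinib, 411 and 444 in untreated cells, and 472 and 511 at T0. Guide TKOV3_35302 had 256 and 341 under erlotinib, 366 and 366 under osimertinib, 595 and 566 in untreated cells, and 539 and 651 at T0 in normalized reads. Both erlotinib libraries were below both osimertinib libraries for these 2 guides. Guide TKOV3_35301 had 449 and 430 normalized reads under erlotinib, 405 and 392 under osimertinib, 604 and 731 in untreated cells, and 636 and 599 at T0. Guide TKOV3_35304 had 576 and 460 under erlotinib, 544 and 648 under osimertinib, 773 and 750 in untreated cells, and 713 and 832 at T0 in normalized reads. For TKOV3_35301 the order of the drugs was turned, with both osimertinib libraries below both erlotinib libraries, and for TKOV3_35304 the drugs overlapped, while all drug-treated libraries stayed below all others for each of the 4 guides.

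The MARCH5 gene level relative to T0 was -0.87 and -0.81 in the erlotinib libraries, -0.68 and -0.51 in the osimertinib libraries, and -0.04 and 0.05 in the untreated libraries on the log2 scale. Relative to untreated cells this was an L2FC of -0.85 ± 0.07 under erlotinib (SE, adjusted p = 4.89e-10 by limma, 11th lowest gene) and -0.61 ± 0.07 under osimertinib (adjusted p = 4.6e-07 by limma, 50th lowest). The spread between guides was wide under erlotinib, where TKOV3_35303 alone had an L2FC of -1.72 ± 0.17 and the other three lay between -0.96 and -0.56. That SD of 0.54 exceeded the SD of 99.8% of genes with 4 guides. Under osimertinib the 4 guides lay closer together, from -0.87 to -0.35.

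MCL1 also fell under both drugs, but its guides and libraries disagreed more than those of BCL2L1 and MARCH5. Guide TKOV3_35636 had 67.1 and 94.5 normalized reads under erlotinib, 128 and 93.7 under osimertinib, 260 and 228 in untreated cells, and 312 and 293 at T0. Guide TKOV3_35634 had 92.9 and 98.9 under erlotinib, 92.5 and 87.0 under osimertinib, 101 and 156 in untreated cells, and 161 and 142 at T0 in normalized reads. For TKOV3_35634 untreated replicate 1 stood near the drug-treated libraries, and untreated replicate 2 lay between the T0 libraries. Guide TKOV3_35635 had 549 and 555 normalized reads under erlotinib, 625 and 622 under osimertinib, 653 and 698 in untreated cells, and 580 and 636 at T0. The osimertinib values of TKOV3_35635 lay inside the range of T0. The fourth guide, TKOV3_35633, had raw counts of 5 and 9 under erlotinib, 14 and 20 under osimertinib, 6 and 5 in untreated cells, and 11 and 22 at T0, too few to pass the filter. In an unfiltered fit it had an L2FC of 0.49 ± 0.76 under erlotinib and 1.56 ± 0.65 under osimertinib relative to untreated cells (SE, adjusted p = 0.831 and 0.159 by edgeR), so a difference was not detectable at this depth.

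The MCL1 gene level relative to T0 was -0.70 and -0.61 in the erlotinib libraries, -0.71 and -0.79 in the osimertinib libraries, and -0.33 and 0.04 in the untreated libraries on the log2 scale. In every drug-treated library and in untreated replicate 2, this median over 3 guides equalled the value of TKOV3_35634 alone. The L2FC against untreated cells was -0.51 ± 0.13 under erlotinib (SE, 3 guides, adjusted p = 0.00758 by limma, 50th lowest gene) and -0.61 ± 0.13 under osimertinib (adjusted p = 0.00121 by limma, 51st lowest). Only TKOV3_35636 was called by edgeR on its own, at -1.59 ± 0.21 under erlotinib and -1.14 ± 0.20 under osimertinib, with adjusted p = 8.23e-08 and 6.07e-05. TKOV3_35634 was at -0.42 and -0.52 and TKOV3_35635 at -0.29 and -0.12 under erlotinib and osimertinib, with adjusted p between 0.153 and 0.604 by edgeR. The SD between MCL1 guides under erlotinib, 0.72, was larger than in 99.9% of genes with 3 guides.

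The gene call for MCL1 depended on TKOV3_35636 and on single libraries, although the gene level largely followed TKOV3_35634, which was not called on its own. With TKOV3_35636 left out, the L2FC was -0.34 under erlotinib and -0.30 under osimertinib, and neither passed the threshold (adjusted p = 0.0906 and 0.113 by limma). Without untreated replicate 2 it was -0.29 and -0.38 (adjusted p = 0.319 and 0.12 by limma). Under erlotinib the call was also lost without erlotinib replicate 1, at -0.44 (adjusted p = 0.0957 by limma), and under osimertinib when the low-count guide was kept, at -0.30 (adjusted p = 0.152 by limma). In contrast, BCL2L1 and MARCH5 stayed called against untreated cells in all 20 alternatives that changed the scaling, filter, test, library or guide.

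The other three anti-apoptotic genes gave smaller values, none of which passed the test. BCL2, the founding member of the family, had an L2FC of -0.12 under erlotinib (unadjusted 95% CI -0.27 to 0.03) and -0.08 under osimertinib (95% CI -0.23 to 0.07) relative to untreated cells. BCL2L2 was at -0.17 (95% CI -0.33 to -0.01) and -0.11 (95% CI -0.27 to 0.05) under erlotinib and osimertinib. BCL2A1 was at -0.01 (95% CI -0.14 to 0.12) and -0.07 (95% CI -0.20 to 0.06) under the same drugs. Adjusted p by limma was between 0.212 and 0.954 over these 6 values, and the intervals leave out losses as large as those of BCL2L1 and MARCH5. Normalized reads of their 10 guides stayed within 245 to 579 for BCL2, 206 to 596 for BCL2L2 and 433 to 898 for BCL2A1 in all drug-treated and untreated libraries.

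Of these 10 guides, TKOV3_05540 against BCL2L2 moved apart from the others. It had 206 and 224 normalized reads under erlotinib, 278 and 286 under osimertinib, 231 and 290 in untreated cells, and 198 and 158 at T0. It was thus higher in all later libraries than in either T0 library, while the remaining guides of BCL2L2 were below the mean of T0 in all later libraries.

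**Figure D1:**
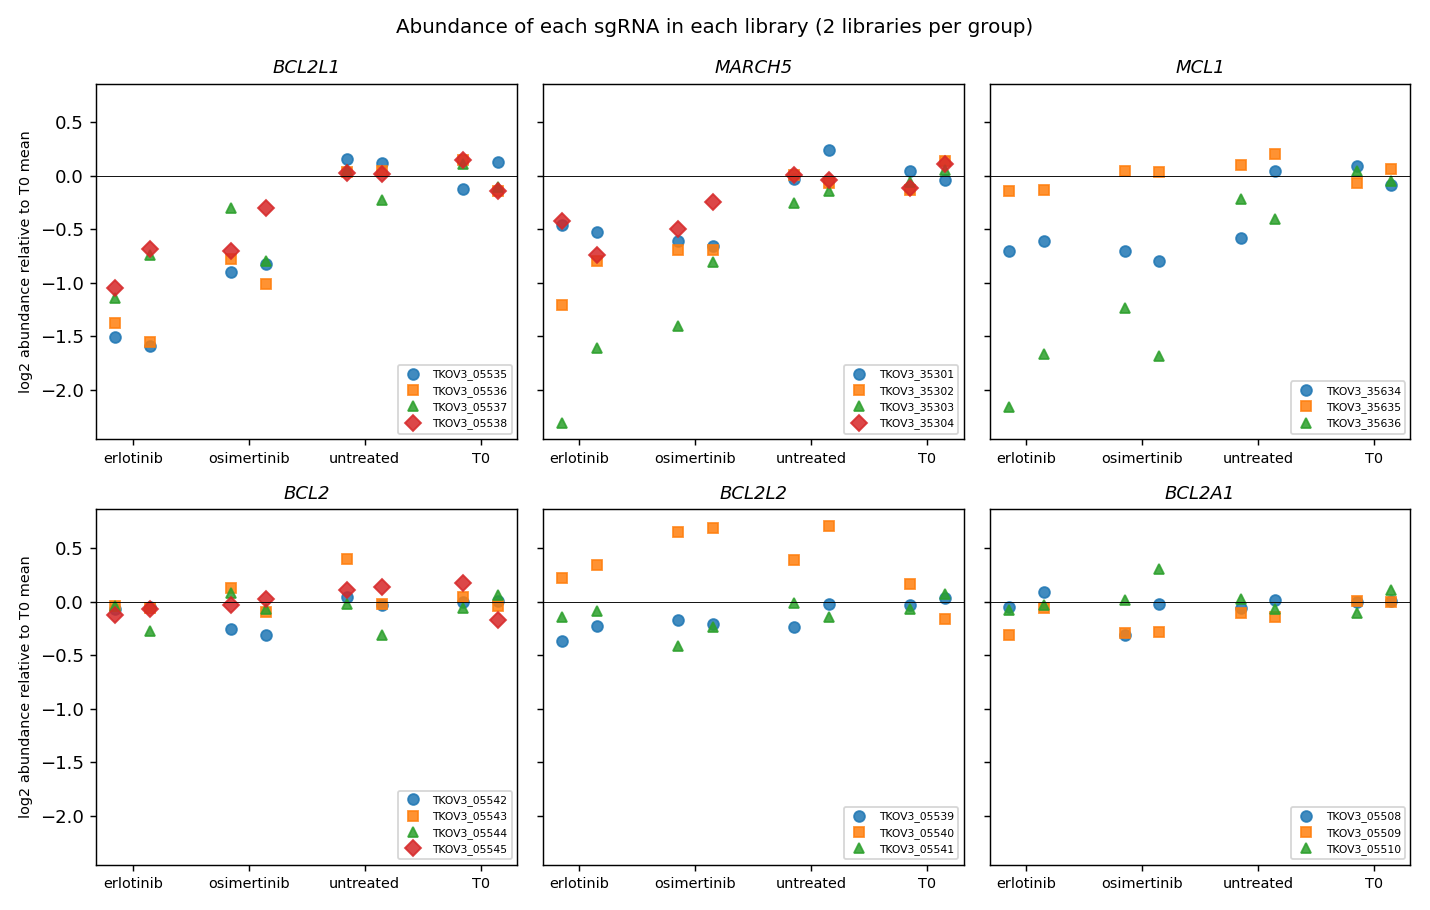
Abundance of each kept sgRNA in each library on the log2 scale, relative to the mean of the T0 libraries, with 1 panel per gene, 1 symbol per guide and the groups along the horizontal axis (2 libraries each, replicate 1 on the left). All guides of BCL2L1 and MARCH5 sit below 0 in every drug-treated library, TKOV3_35636 of MCL1 sits far below TKOV3_35635, and TKOV3_05540 of BCL2L2 is the only guide above 0 in all untreated and drug-treated libraries.

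Relative to untreated cells, 3 of the 6 genes were called lower under erlotinib, where limma called 3.28% of all genes lower, and 3 of 6 under osimertinib, where it called 5.99% lower. At the guide level, edgeR called 9 of the 21 guides lower under erlotinib, against 1.05% of all targeting guides, and 9 of 21 under osimertinib, against 2.33%. No guide was called higher in either comparison, against 1.76% of all guides under erlotinib and 2.41% under osimertinib. For all 11 kept guides of BCL2L1, MARCH5 and MCL1, both libraries of each drug lay below both untreated libraries. The share of all guides was 22.4% for erlotinib and 22.5% for osimertinib. None of the 21 kept guides was separated in the higher direction, against 22.7% and 22.9%. The MCL1 guide under the filter, TKOV3_35633, was higher in both osimertinib libraries than in both untreated libraries, and overlapped under erlotinib. Of the 10 guides of BCL2, BCL2L2 and BCL2A1, 4 were separated in the lower direction under each drug and none was called. The lowest adjusted p by edgeR was 0.348 under erlotinib and 0.193 under osimertinib. Both drugs were set against the same untreated libraries, so the comparisons are not independent of each other.

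**Figure D2:**
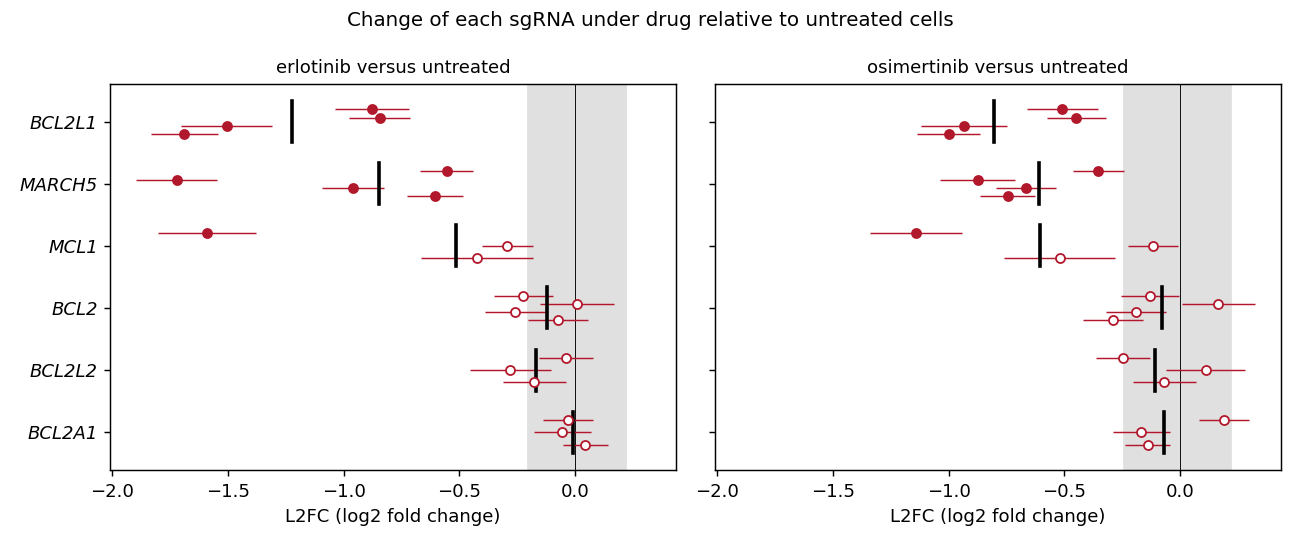
L2FC of each guide relative to untreated cells (points, bars are SE; filled where edgeR's adjusted p was under 0.05) and of the gene (black line), under erlotinib on the left and osimertinib on the right; the grey band spans the 5th to the 95th percentile of all genes. Every guide of BCL2L1 and MARCH5 is filled and left of the band, 1 guide of MCL1 is filled, and the guides of BCL2, BCL2L2 and BCL2A1 lie in or near the band.

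Several calls of single guides changed with the processing or with 1 library. Under osimertinib, MARCH5 guide TKOV3_35304 (L2FC -0.35, adjusted p = 0.0451 by edgeR) lost its call in 9 of 14 alternatives, and BCL2L1 guides TKOV3_05538 (-0.51, adjusted p = 0.0377) and TKOV3_05537 (-0.45, adjusted p = 0.0242) lost theirs in 7 and 4 of 14. Under erlotinib, TKOV3_35301 of MARCH5 was no longer called without untreated replicate 2 (-0.46, adjusted p = 0.11 by edgeR), nor TKOV3_35304 without erlotinib replicate 2 (-0.40, adjusted p = 0.165), nor TKOV3_05538 of BCL2L1 without erlotinib replicate 1 (-0.70, adjusted p = 0.0592).

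**Figure D3:**
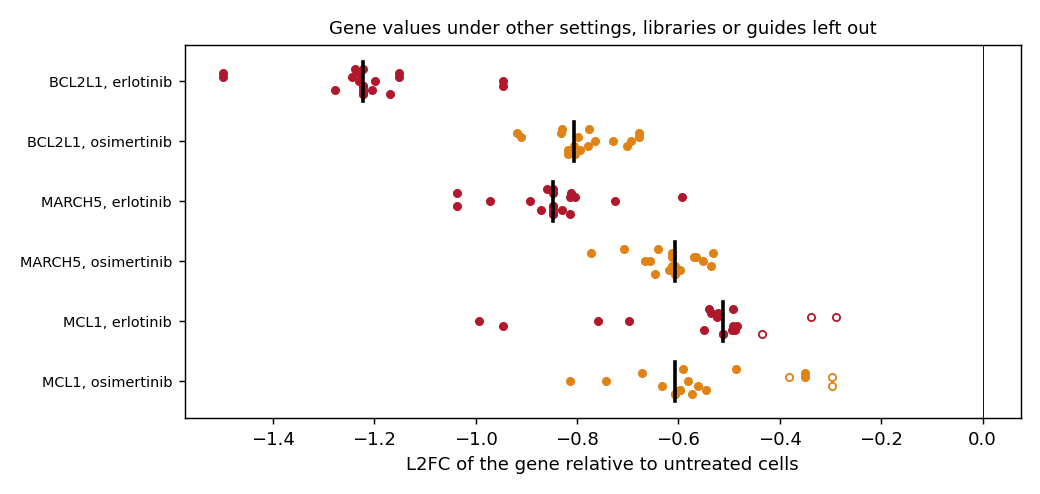
L2FC relative to untreated cells for BCL2L1, MARCH5 and MCL1 under each alternative (points; another scaling, filter, test or gene summary, or 1 library or guide left out), with the reported value as a black line; open points did not pass the adjusted p of 0.05. BCL2L1 and MARCH5 have no open point, whereas MCL1 has 3 open points under each drug and spans -0.99 to -0.29 under erlotinib.

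The comparison of untreated cells with T0 covered 72 h without drug. Puromycin selection and recovery came before T0 in the methods, so any loss of knockout cells in that time was not measured. None of the 6 genes was called, while limma called 9.89% of all genes lower and 3.03% higher. BCL2L1 was at 0.08 (95% CI -0.09 to 0.25) and MARCH5 at 0.01 (95% CI -0.14 to 0.16), with adjusted p = 0.587 and 0.96 by limma. MCL1 was at -0.14 (95% CI -0.40 to 0.11, adjusted p = 0.528 by limma), with its untreated libraries apart as given above. Among the 21 guides, edgeR called only TKOV3_05540 of BCL2L2, at an L2FC of 0.55 (adjusted p = 0.0377), where 1.19% of all guides were called higher and 5.93% lower. The libraries were separated for 3 guides in the lower and 2 in the higher direction, against 25.4% and 25.5% of all guides. This single call was lost with DESeq2, with scaling on non-targeting guides, and without T0 replicate 1 (0.72, adjusted p = 0.0576 by edgeR), T0 replicate 2 (0.40, adjusted p = 0.476) or untreated replicate 2 (0.38, adjusted p = 0.417). With the zero set on non-targeting guides, limma called 49.8% of all genes lower in untreated cells than at T0, with a median L2FC of -0.16 over all genes, so the 3 of 6 genes called are a share near the background. They were MCL1 (-0.32, adjusted p = 0.0369 by limma), BCL2L2 (-0.23, adjusted p = 0.0188) and BCL2A1 (-0.24, adjusted p = 0.00488).

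Measured from T0, the same 3 genes fell under each drug. BCL2L1 was at -1.14 under erlotinib and -0.72 under osimertinib (adjusted p = 2.81e-12 and 2.47e-08 by limma), MARCH5 at -0.84 and -0.60 (adjusted p = 1.61e-10 and 8.8e-08), and MCL1 at -0.65 and -0.75 (adjusted p = 0.000219 and 2.03e-05). Limma called 10.8% of all genes lower and 5.09% higher under erlotinib, and 15.3% lower and 10.9% higher under osimertinib. BCL2L1 ranked 58th, MARCH5 201st and MCL1 399th from the lowest under erlotinib. Under osimertinib the order differed, with MCL1 449th, BCL2L1 490th and MARCH5 702nd. The L2FC of MCL1 and BCL2L1 there, -0.75 ± 0.13 and -0.72 ± 0.08, lay within their SE of each other. Among the guides, edgeR called 9 lower and none higher under erlotinib, against 5.38% lower and 1.38% higher in all guides, and 11 lower and 1 higher under osimertinib, against 8.99% lower and 4.57% higher. Separated from both T0 libraries were 16 guides below and 1 above under erlotinib, against 26.1% and 25.3% of all guides, and 15 below and 1 above under osimertinib, against 26.8% and 27.0%. The osimertinib calls added MCL1 guide TKOV3_35634 (-0.76, adjusted p = 0.0207), BCL2L2 guide TKOV3_05541 (-0.33, adjusted p = 0.0477) and, in the opposite direction, BCL2L2 guide TKOV3_05540 (0.67, adjusted p = 0.00469). These calls were lost in 4, 10 and 1 of 14 alternatives, and each of them without T0 replicate 2, at -0.84, -0.25 and 0.51 (adjusted p = 0.0754, 0.378 and 0.182 by edgeR). TKOV3_35634 also lost its call without T0 replicate 1 (-0.67, adjusted p = 0.2) or osimertinib replicate 2 (-0.71, adjusted p = 0.0706). TKOV3_05541 was called in only 1 of the 8 fits that left out a library, the one without osimertinib replicate 2. BCL2L2 as a gene was at -0.22 under erlotinib (adjusted p = 0.0537 by limma) and -0.16 under osimertinib (adjusted p = 0.134), each a median over guides of unlike direction. With the zero set on non-targeting guides all 6 genes were called lower than T0 under both drugs, BCL2, BCL2L2 and BCL2A1 with L2FC between -0.38 and -0.21, where the median of all genes was -0.15 and limma called 44.4% of them lower under erlotinib and 46.7% under osimertinib.

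Erlotinib and osimertinib were compared directly, at doses that differ (10 µM and 0.1 µM). BCL2L1 knockout cells were lower under erlotinib, with an L2FC of -0.42 ± 0.08 (SE, 95% CI -0.59 to -0.25, adjusted p = 0.00595 by limma). It was the only gene of the 6 called, where 0.619% of all genes were called lower and 0.940% higher, and it was the 6th lowest gene. The call was lost without erlotinib replicate 1 (-0.35, adjusted p = 0.126 by limma) and when guide TKOV3_05535 (-0.25, adjusted p = 0.26) or TKOV3_05536 (-0.25, adjusted p = 0.214) was left out. MARCH5 was at -0.24 (95% CI -0.39 to -0.09, adjusted p = 0.0948 by limma). It passed the threshold with the mean over guides (-0.31, adjusted p = 0.0298), without osimertinib replicate 1 (-0.32, adjusted p = 0.0437) and with TKOV3_35301 left out (-0.50, adjusted p = 0.00208), the guide whose order between the drugs was turned. MCL1 was at 0.09 (95% CI -0.16 to 0.35, adjusted p = 0.803 by limma), an interval that spans differences in either direction. By edgeR, 2 of the 21 guides were called lower under erlotinib than under osimertinib, against 0.111% of all guides lower and 0.218% higher, namely TKOV3_05535 of BCL2L1 (-0.69, adjusted p = 0.0158) and TKOV3_35303 of MARCH5 (-0.85, adjusted p = 0.0131). Both erlotinib libraries lay below both osimertinib libraries for 9 guides and above them for 4, against 18.8% of all guides in the lower and 18.8% in the higher direction.

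The genes that act beside these survival factors were then taken from lists, each read against all genes tested, whose median L2FC was 0.00 under both drugs. Among the effectors BAX, BAK1 and BOK, 1 was called higher and 1 lower under erlotinib and 2 were called higher under osimertinib. Loss of BAX, which opens the mitochondrial outer membrane, gave 0.50 under erlotinib and 0.43 under osimertinib relative to untreated cells (adjusted p = 1.22e-06 and 1.37e-05 by limma). BAK1, encoding the related effector BAK, was at -0.21 under erlotinib (adjusted p = 0.0474 by limma), and BOK was at 0.21 under osimertinib (adjusted p = 0.0177). Of 8 BH3-only genes, 3 were called higher under erlotinib, where 4.52% of all genes were, and 1 under osimertinib, where 5.80% were, with none lower and list medians of 0.15 and 0.12. These were BCL2L11, encoding BIM, at 0.36 under erlotinib (adjusted p = 0.00108 by limma), BID at 0.23 under erlotinib (adjusted p = 0.013), and BMF at 0.23 under each drug (adjusted p = 0.0253 and 0.0164). Under osimertinib BCL2L11 was at 0.21, just over the threshold (adjusted p = 0.0522 by limma), and BID at 0.11 (adjusted p = 0.245). BID was also lower in untreated cells than at T0, at -0.23 (adjusted p = 0.00803 by limma), and at 0.00 under erlotinib relative to T0 (adjusted p = 0.98).

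Downstream of the mitochondrion, 2 of 5 apoptosome and caspase genes were called higher under each drug and none lower. APAF1, the scaffold of the apoptosome, was at 0.57 under erlotinib and 0.50 under osimertinib (adjusted p = 1.38e-07 and 1.53e-06 by limma). CASP9, the protease it activates, was at 0.49 and 0.39 (adjusted p = 1.1e-07 and 6.46e-06). Cells without these genes thus made up a larger share under each drug, the opposite direction from cells without BCL2L1, MARCH5 or MCL1.

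Of 12 genes of mitochondrial dynamics and MCL1 turnover, 3 were called higher and 1 lower under each drug. The lower gene was MIEF2 under both, at -0.26 under erlotinib and -0.33 under osimertinib (adjusted p = 0.0156 and 0.00169 by limma). HUWE1, a ubiquitin ligase that targets MCL1, was at 0.47 under erlotinib and 0.38 under osimertinib (adjusted p = 6.68e-06 and 0.00015 by limma). FBXW7, the substrate receptor of another ligase that targets MCL1, was called under osimertinib at 0.49 (adjusted p = 2.88e-05). VDAC2, an outer membrane channel that binds BAK and BAX, was at 0.49 and 0.38 (adjusted p = 0.000353 and 0.00446). HUWE1 and VDAC2 had also fallen in untreated cells relative to T0, at -0.43 and -0.46 (adjusted p = 8.7e-06 and 0.00021 by limma), where none of the 6 genes was called on the same scale, and they were at 0.05 and 0.02 under erlotinib relative to T0 (adjusted p = 0.699 and 0.902). The 2 other anti-apoptotic relatives listed, BCL2L10 and BCL2L12, gave 1 call, BCL2L12 higher at 0.26 under erlotinib (adjusted p = 0.0314 by limma). BCL2L12 was at -0.39 in untreated cells relative to T0 (adjusted p = 0.000225 by limma) and at -0.14 under erlotinib relative to T0 (adjusted p = 0.24).

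**Figure D4:**
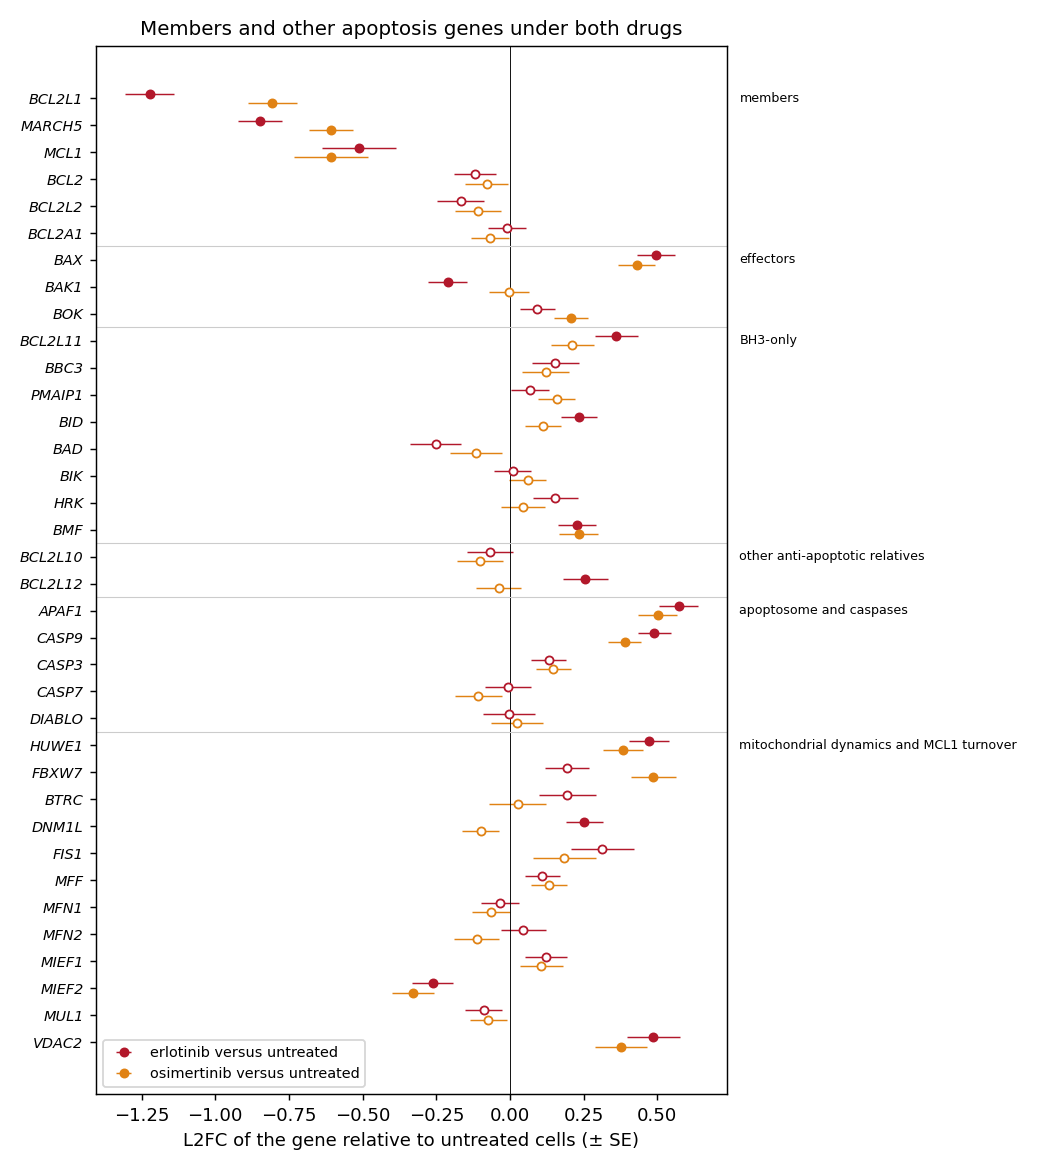
L2FC (± SE) of the 6 genes and of the listed apoptosis genes relative to untreated cells, with erlotinib in red and osimertinib in orange; filled points passed limma's adjusted p of 0.05. BCL2L1, MARCH5 and MCL1 lie furthest left, and BAX, APAF1, CASP9, HUWE1 and VDAC2 lie right of 0 under both drugs.

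The genes with the most similar pattern were sought by the root mean square distance between gene levels over the 8 libraries, among 17274 genes with at least 3 guides. This is a description over libraries that all genes share. For BCL2L1 the nearest genes were FGFR1 (distance 0.16 on the log2 scale), SAMD4B (0.19), MARCH5 (0.19), EXT1 (0.20) and YAP1 (0.21). For MARCH5 they were FGFR1 (0.08), SAMD4B (0.11), NEDD9 (0.14), TM2D2 (0.15) and PDCL (0.15). MARCH5 was thus the 3rd nearest to BCL2L1 among the genes compared, whereas BCL2L1, at 0.19, was not among the 5 nearest to MARCH5. The distance takes in the size of the change, so genes that fell about as far lie near each other. For MCL1 they were MPRIP (0.09), KIAA0100 (0.10), SETD2 (0.11), BRK1 (0.12) and PPP1R15B (0.12), and 69 genes lay nearer to MCL1 than MARCH5 did, at 0.19.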

How the data were processed

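The authors deposited raw counts per sgRNA for 8 libraries, not normalized. Guides were amplified, per the labels, from genomic DNA in a pair of PCR rounds without molecular identifiers and mapped to the guide library. The methods name Bowtie2 as the aligner, whereas the submitters' processing notes list Bowtie 1.3.1. Precision from read numbers therefore covers counting error only. The 5% of guides with the lowest mean normalized count (under 45.85) were removed, which left 67397 targeting and 138 non-targeting guides. Guides were tested with edgeR 4.0.16 (quasi-likelihood test, TMM scaling, all 8 libraries in 1 fit by group, 4 residual degrees of freedom, R 4.3.3). Genes with at least 2 guides (17762) were tested with limma 3.58.1 (lmFit, eBayes with trend) on the median over guides of log2 CPM (prior count 1) after each guide was centred on its own mean. P-values are two-sided and were adjusted over all guides or genes by the Benjamini-Hochberg method, with a threshold of 0.05. The scripts were tested on simulated data. Every guide of BCL2L1, MCL1, MARCH5 and BCL2L2 was named, and those of BCL2 and BCL2A1 were given as ranges. From each list, the 3 called genes with the largest absolute change in a drug against untreated were named. MIEF2 was named in addition, as the only gene of its list called lower. The genes and lists were chosen with earlier results of these data known. Guides of a gene share a target and are not replicates of a condition. Alternatives were DESeq2 1.42.0 (test and size factors), scaling on non-targeting guides, no filter, a fit of the compared groups only, the replicate number as a block, other summaries over guides, and leaving out each library or guide. An osimertinib arm at a higher dose named in the series' design was not analysed here.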

Additional observations from a re-analysis of the deposited data

Results flagged for a closer look

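In 3 cases the effects of the drugs differed by a direct test between them, at doses that are not matched. The loss of BCL2L1 knockout cells was larger under erlotinib than under osimertinib, with an L2FC of -0.42 between the drugs. The same held for BCL2L1 guide TKOV3_05535, at -0.69, and for MARCH5 guide TKOV3_35303, at -0.85. All 3 calls were lost in at least 1 alternative. TKOV3_05535 was not called in a fit of the compared groups only (-0.69, adjusted p = 0.103 by edgeR). Nor was it called without erlotinib replicate 1 (-0.73) or replicate 2 (-0.65). TKOV3_35303 was not called with the DESeq2 test (-0.85, adjusted p = 0.0646). It was also not called without erlotinib replicate 1 (-0.54) or osimertinib replicate 2 (-0.51). The BCL2L1 value includes TKOV3_05535, and the gene call was lost without that guide.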

How the results depend on the processing

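Of 702 alternative gene values for the 6 genes, 673 kept their side of the threshold, 18 passed it only in the alternative, 9 no longer passed it and 2 were reversed. The reversed values were both for BCL2L2, at 0.23 in untreated cells relative to T0 without guide TKOV3_05539 and 0.24 under osimertinib relative to T0 without TKOV3_05541. Of 1764 alternative guide values, 60 lost and 13 gained a call. With scaling on non-targeting guides, the count of genes called was 3 of 6 in untreated cells against T0 (0 as reported) and 6 under each drug against T0 (3 as reported), where 49.8%, 44.4% and 46.7% of all genes were called lower in untreated cells, under erlotinib and under osimertinib, and the count of guides called in untreated cells against T0 was 0, as it was with the DESeq2 test (1 as reported). Between the drugs, 1 guide was called with the DESeq2 test and 1 in a fit of the compared groups only (2 as reported), and 2 genes were called with the mean over guides (1 as reported). Leaving out 1 library at a time gave these ranges of guides called: 8 to 9 for erlotinib and 6 to 9 for osimertinib against untreated, 0 to 1 for untreated, 7 to 10 for erlotinib and 8 to 11 for osimertinib against T0, and 0 to 2 between the drugs. For genes the ranges were 2 to 3, 2 to 3, 0 to 0, 3 to 4, 3 to 4 and 0 to 2 in the same order. The replicate numbers did not pair the samples (correlation of deviations between -0.003 and 0.01). With the replicate number as a block, 9 and 9 guides and 3 and 3 genes were called under erlotinib and osimertinib against untreated, and the only call that changed among the 6 genes was BCL2L2 under erlotinib against T0, at -0.22 (adjusted p = 0.049 by limma).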
